A study of Mus musculus with 4 samples.

Results

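UDP-glucuronosyltransferases (UGTs) and cytosolic sulfotransferases (SULTs) were examined for chromatin binding of tagged MafG in mouse liver. The members were taken by symbol: every RefSeq protein-coding gene on chromosomes 1 to 19 whose symbol starts with Ugt1, Ugt2, Ugt3 or Sult. This gave 42 genes, 21 UGTs and 21 SULTs, out of 20665 protein-coding genes on those chromosomes. A peak was counted for a gene when its midpoint lay inside the gene or within 10 kb of either end, and peaks shared across the Ugt1a locus were counted once in peak totals.

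The measurement was chromatin immunoprecipitation with sequencing (ChIP-seq) on livers of C57BL6/J mice. In 2 libraries the treatment was labelled Ad BLRP MAFG, which put MafG with a BLRP tag into the liver, and in 2 it was labelled Ad BLRP Control. Both groups were precipitated with the same Avi-tag antibody, and age and sex are not in the labels used here. MafG was overexpressed, so binding at its native level was not measured, and whole liver was used, so signal cannot be given to a cell type. What was analysed is 1 list of 68763 peaks called on 1 BLRP-MafG tag collection of 20406492 tags against 1 control collection, whose total was 1.72e+07 tags as implied by the list. There is no value per library and no standard deviation; ranges in parentheses are exact 95% intervals of tag counting alone.

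The small MAF proteins, of which MafG is one, are leucine zipper factors that lack an activation domain of their own. They bind DNA as dimers with each other or with partners such as NRF2 and BACH1, at MAF recognition and antioxidant response elements. UGTs sit in the endoplasmic reticulum and join glucuronic acid to bilirubin, bile acids, steroids and drugs. SULTs are cytosolic and transfer sulfate from the donor PAPS to phenols, steroids, bile acids and amines. Both reactions make lipophilic molecules soluble enough to leave in bile or urine, and both families are prominent in hepatocytes.

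The share of members with a peak was close to that of all genes, and 4 of the 8 member peaks of 50 or more lay in 1 locus. A peak was listed for 34 of 42 members (81.0%), beside 76.5% of all protein-coding genes on the same chromosomes. By family, 19 of 21 UGTs and 15 of 21 SULTs had a peak. The height of a peak is its normalized tag count, the BLRP-MafG tags in 200 bp scaled to 10000000 tags in total. The median of the highest peak per gene, genes without a peak at 0, was 19.4 over the members and 14.7 over all genes. This order turned with other windows: it was 7.60 beside 8.33 at 1 kb, 8.09 beside 11.8 at 5 kb and 31.6 beside 35.8 at 50 kb. With peaks of at least 20-fold over control in the authors' deposited table, it was 10.8 beside 11.8. With the 10 kb window and every listed peak, the median was 26.0 for UGTs and 14.7 for SULTs. Without the Ugt1a genes it was 9.31 over the remaining 33 members, of which 75.8% had a peak. The 10382 protein-coding genes in the length range of those 33, from 9.865 to 79.915 kb, had a median of 16.7, and 84.2% had a peak. A peak of 50 or more was found at 10 of 42 members (23.8%), beside 17.9% of all genes. Of these 10, 6 were Ugt1a genes that share the same peaks.

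**Figure D1:**
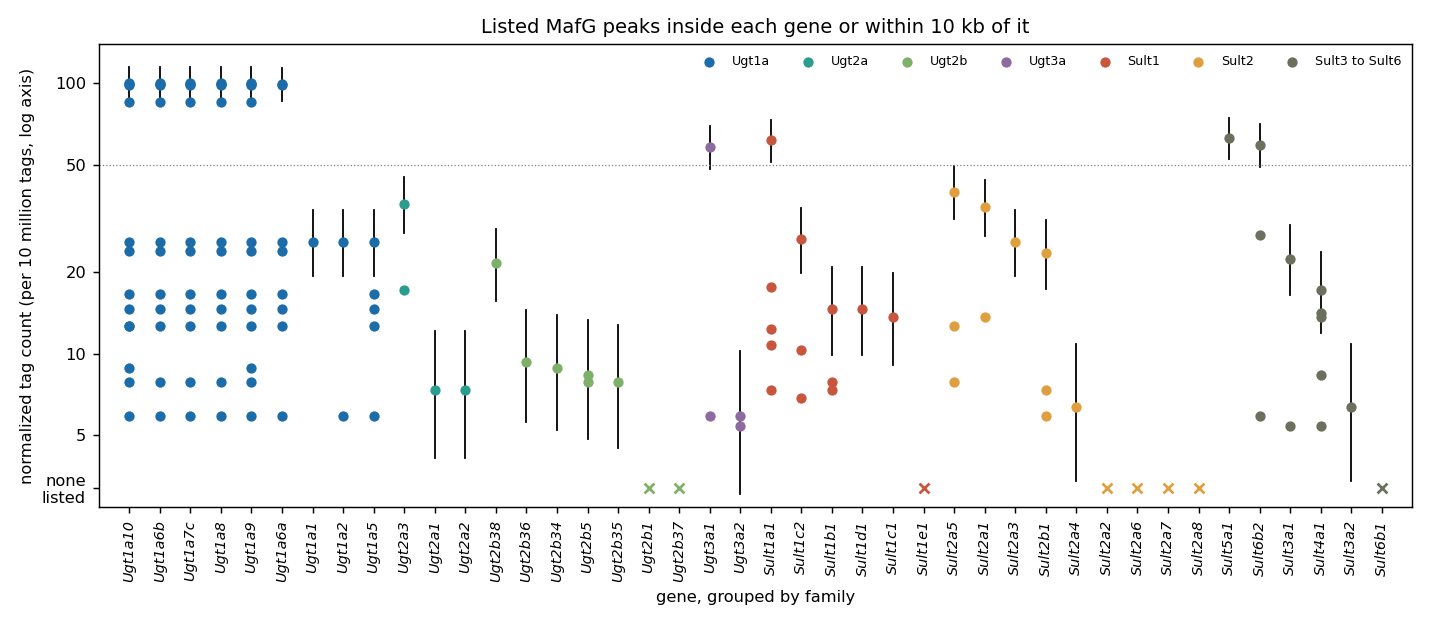
Each point is a listed peak inside a gene or within 10 kb of it, by its normalized tag count per 10000000 tags on a log axis; genes are grouped by family, black lines are exact 95% counting intervals of the highest peak, and crosses mark the 8 genes with none listed. The same tall peaks, up to 100, recur in 6 Ugt1a genes, and outside that locus only Sult5a1, Sult1a1, Sult6b2 and Ugt3a1 pass the dotted line at 50.

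The 42 members had 60 distinct peaks in all, 26 at UGTs and 34 at SULTs. Their median height was 12.7, beside 12.3 for the 41653 peaks of all genes counted the same way. Of the 60, 33 lay inside a member and 27 outside every member, and 14 were counted for more than 1 member. Over the joined windows there were 3.60 peaks per 100 kb, beside 3.41 for all genes. For 8 of the 60 peaks the closest protein-coding gene was not a member, and these lay at Sult1a1, Sult2b1, Sult4a1 and Sult6b2.

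**Figure D2:**
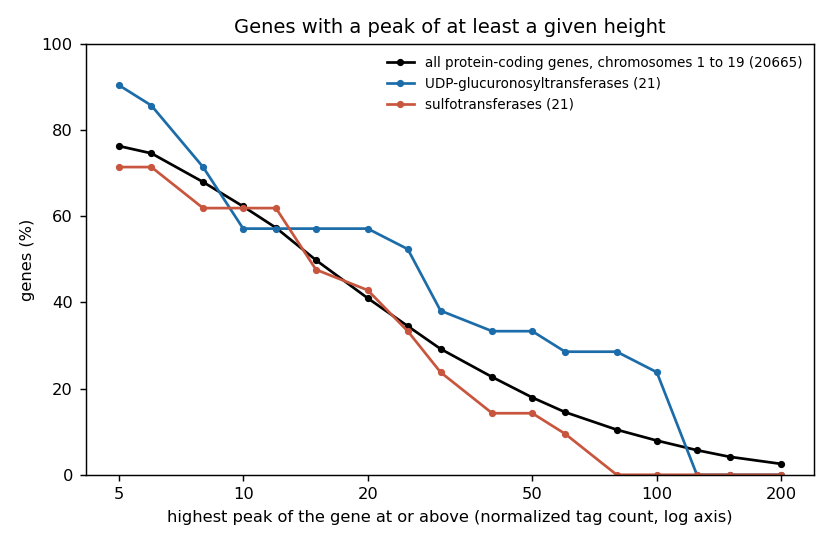
For each height on the log x axis (normalized tag count), the y axis gives the percentage of genes whose highest peak reaches it, for 21 UDP-glucuronosyltransferases, 21 sulfotransferases and all 20665 genes. The UGT line runs above the others from 5 to 8, below both at 10 and 12, and above them again from 15 to 100. At 100, 23.8% of UGTs and 7.95% of all genes remain, and the UGT line ends there. Those UGTs are 5 Ugt1a genes that count the same peak, so they are not separate observations. UGTs outside Ugt1a reach at most 58.3. The SULT line ends below 80.

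The Ugt1a locus held the tallest peaks of both families. It encodes several enzymes from alternative first exons that are each spliced to the same downstream exons. Its 9 genes therefore overlap, and they end at position 88220002 or, for Ugt1a8 and Ugt1a6b, at 88218998. Ugt1a1 is the bilirubin-conjugating enzyme, and the Ugt1a6 enzymes conjugate simple phenols. The locus spans chr1:88055411-88220002 on mm10, 164.6 kb, and had 13 distinct peaks, 12 within it and 1 outside. It carried 7.29 peaks per 100 kb between its ends, beside 2.79 over chromosomes 1 to 19, the space between genes included. With 10 kb added at either end it carried 7.04, beside 3.41 over the joined windows of all genes. Its peaks held 1046 of the 2725 BLRP-MafG tags in members' peaks (38.4%).

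The 4 tall peaks fell in a stretch of 38.2 kb around the start of Ugt1a6a. They held 74.8% of the tags in the locus' peaks. The tallest, 100 (86.7 to 115), stood at chr1:88123550-88123750, 11159 bp before the Ugt1a6a start and 20393 bp past that of Ugt1a6b. The control held 0 tags there; set against a floor of 3 tags the ratio is 57.4, and its exact lower bound is 46.2. The second, 99.5 (86.3 to 114), lay at chr1:88147268-88147468, 12559 bp past the Ugt1a6a start, again over 0 control tags, a ratio of 57.1 against the floor (lower bound 46.0). These peaks ranked within the highest 3.66% of all 68763.

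The other tall peaks lay at similar distances past the starts of Ugt1a6a and Ugt1a6b, which encode closely related enzymes; whether reads could be placed at either copy was not tested. One of 98.5 (85.4 to 113) was at chr1:88140562-88140762, 5853 bp past the Ugt1a6a start, over 2 control tags, a ratio of 84.8 (23.2 to 704.8). One of 85.3 (73.1 to 98.9) was at chr1:88109117-88109317, 5960 bp past the Ugt1a6b start, over 6 control tags, a ratio of 24.5 (11.01 to 67.6). The counting intervals of all 4 heights overlapped, so they are not ordered by these data. Each was separated from every lower peak of the locus, the highest of which was 26.0 (19.5 to 34.0).

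**Figure D3:**
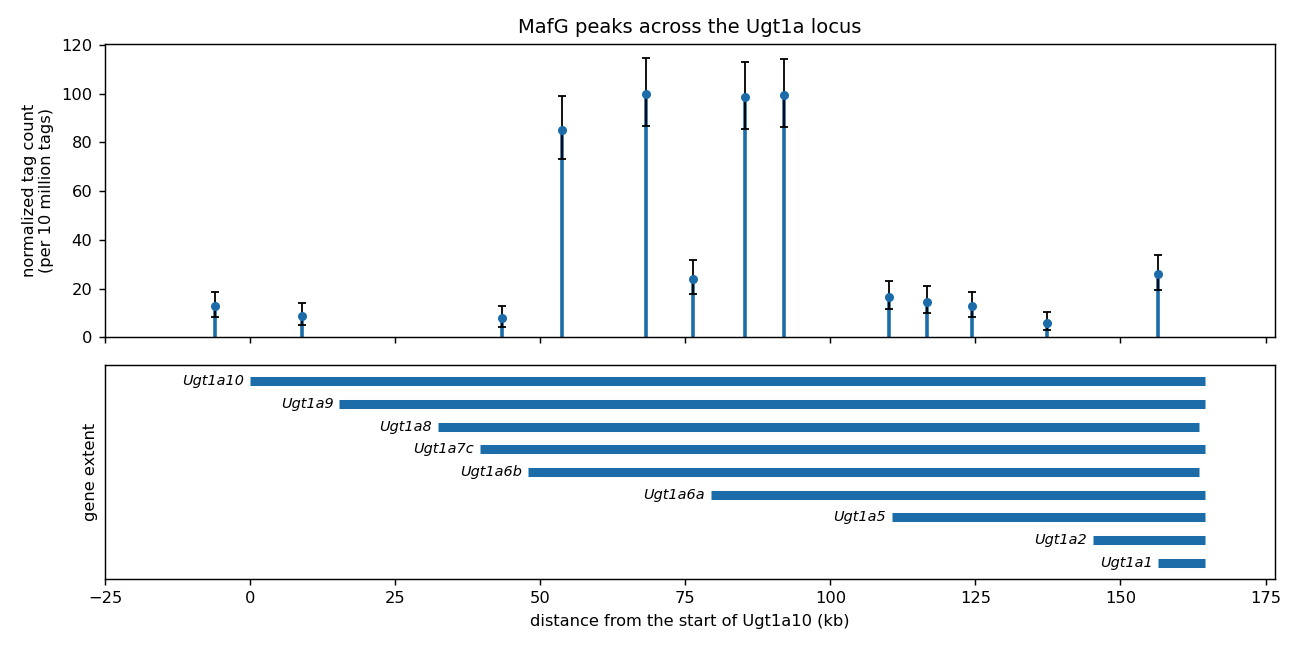
Upper panel, the 13 peaks by normalized tag count (points, with exact 95% counting intervals) against the distance in kb from the start of Ugt1a10. Lower panel, the extent of the 9 genes, whose right ends lie at position 88218998 or 88220002. The 4 peaks between 85.3 and 100 lie between 53.8 and 92.0 kb, inside Ugt1a10, Ugt1a9, Ugt1a8 and Ugt1a7c as well as Ugt1a6b, and none falls inside Ugt1a5, Ugt1a2 or Ugt1a1.

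The genes nest, and the longer ones counted more peaks. Ugt1a10 counted 13 peaks and Ugt1a9 12, while Ugt1a8, Ugt1a7c and Ugt1a6b counted 11 each. Ugt1a6a counted 8, Ugt1a5 5, Ugt1a2 2 and Ugt1a1 1. Of the 1590 protein-coding genes between 85.2 and 164.6 kb long, the range of the 6 Ugt1a genes with a tall peak, 37.0% had a peak of 50 or more and the median count was 5 peaks. In that range 72 genes (4.53%) had 11 or more. The 6 genes share these peaks and are 1 observation of a locus, not 6.

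The single peak of Ugt1a1 lay on its start site. It measured 26.0 (19.5 to 34.0) at chr1:88211850-88212050, its midpoint 9 bp before the start, over 3 control tags, a ratio of 14.9 (4.83 to 74.6). It was also the highest peak counted for Ugt1a5 and Ugt1a2, and it was the peak closest to Dnajb3, a gene within the locus, at 6202 bp. The peak covered 109 of the 250 bases before the start, shown in capitals in the RefSeq promoter sequence, written 5′ to 3′ (GRCm38.p6, chr1:88211709-88211958, plus strand), which is given because it is the tallest peak on a start site among the members:
Ugt1a1: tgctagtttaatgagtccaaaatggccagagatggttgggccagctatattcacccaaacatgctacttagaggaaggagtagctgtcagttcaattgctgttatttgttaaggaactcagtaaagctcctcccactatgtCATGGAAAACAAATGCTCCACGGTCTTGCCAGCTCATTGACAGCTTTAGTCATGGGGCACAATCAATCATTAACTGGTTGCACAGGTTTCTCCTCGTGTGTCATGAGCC

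Smaller peaks filled the rest of the locus. A peak of 16.7 (11.5 to 23.3) at chr1:88165413-88165613 lay 499 bp before the Ugt1a5 start, over 0 control tags, a ratio of 9.56 against the floor (lower bound 7.36). One of 24.0 (17.8 to 31.7) lay 3053 bp before the Ugt1a6a start, with 4 control tags. The remaining 6 ran from 5.88 to 14.7.

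The Ugt2 genes, which conjugate steroids, bile acids and many drugs, had mostly low peaks. They lie on chromosome 5 in a cluster that runs on into Sult1b1, Sult1d1 and Sult1e1, 13 genes over 701.8 kb. Between its outermost ends, the space between genes included, the cluster held 19 peaks, or 2.71 per 100 kb, close to the 2.79 over chromosomes 1 to 19. Their median height was 8.82, beside 12.3 for peaks on those chromosomes, and none reached 50. All 3 Ugt2a genes and 5 of 7 Ugt2b genes had a peak, beside 76.5% of all genes.

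Ugt2a3 had the tallest Ugt2 peak, 35.8 (28.04 to 45.0) at chr5:87340625-87340825, 3530 bp before its start, over 3 control tags, a ratio of 20.5 (6.75 to 102). A further peak of 17.2 (11.9 to 23.9) at chr5:87337020-87337220 lay on its start, the midpoint 75 bp past it, over 1 control tag, a ratio of 29.5 (4.96 to 1199). Ugt2a1, an enzyme of the olfactory epithelium, and the overlapping Ugt2a2 shared 1 peak of 7.35 (4.11 to 12.1). Ugt2a3 was thus the only Ugt2a gene above 10.

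Among the Ugt2b genes only Ugt2b38 had a peak above 10, at 21.6 (15.7 to 28.9) inside the gene, with 3 control tags. Ugt2b36 and Ugt2b35 each had 1 peak, at their start sites. That of Ugt2b36 measured 9.31 (5.61 to 14.5) at chr5:87092357-87092557, 98 bp past the start, with a ratio of 16.0 (2.55 to 666). That of Ugt2b35 measured 7.84 (4.48 to 12.7) at chr5:87000835-87001035, 75 bp past the start, with a ratio of 13.5 (2.10 to 566). Each ratio rests on 1 control tag. Ugt2b34 had 1 peak of 8.82 inside it and Ugt2b5 had 2, of 8.33 and 7.84, outside it. The 5 heights from 7.84 to 9.31 had overlapping counting intervals. Ugt2b1 and Ugt2b37 had none listed, and the closest peaks lay 13.0 and 26.2 kb away, at 8.82 and 10.8.

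**Figure D4:**
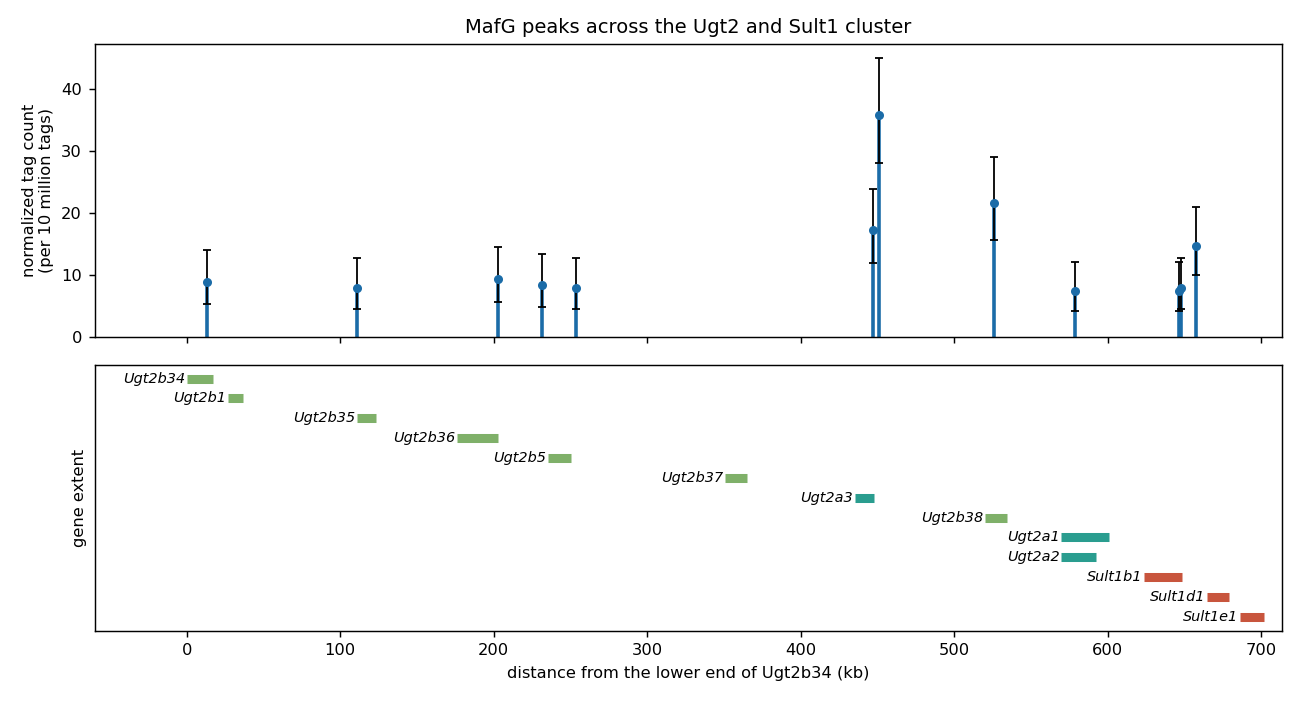
Upper panel, the peaks counted for the chromosome 5 members by normalized tag count (points, with exact 95% counting intervals) against the distance in kb from the lower end of Ugt2b34; lower panel, the extent of the 13 genes. The 2 Ugt2a3 peaks, of 35.8 and 17.2, and the Ugt2b38 peak of 21.6 stand above the other peaks, which reach at most 14.7.

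The Ugt3 genes lie side by side on chromosome 15 and differed in height. Enzymes of this family use sugar donors other than UDP-glucuronic acid. Ugt3a1 held a peak of 58.3 (48.3 to 69.8) at chr15:9283343-9283543, 3614 bp past its start, over 6 control tags, a ratio of 16.7 (7.46 to 46.5). It also had a low peak of 5.88 outside. Ugt3a2 had 2 peaks, of 5.88 and 5.39, and their intervals did not overlap that of the tall Ugt3a1 peak.

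Of the Sult1 genes, which act mainly on phenols, catecholamines, thyroid hormones and oestrogens, 5 of 6 had a peak, beside 76.5% of all genes. Sult1a1, the phenol sulfotransferase, counted 5. Its highest, 61.7 (51.4 to 73.5) at chr7:126663996-126664196, over 2 control tags, a ratio of 53.1 (14.4 to 444), lay 8769 bp outside the gene and inside the neighbouring gene Sgf29. With each peak given only to its closest gene, the highest at Sult1a1 was 12.3. One of its peaks, 10.8 (6.76 to 16.3) at chr7:126676299-126676499, was centred 19 bp past a RefSeq start site, over 1 control tag, a ratio of 18.6 (3.00 to 766). That start, at position 126676418 on the minus strand, lies inside the gene, which extends to 126690443. The peak was 3534 bp from the nearer gene end.

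Sult1b1, a thyroid hormone sulfotransferase, had 3 peaks. The highest, 14.7 (9.92 to 20.99), lay between Sult1b1 and Sult1d1, a catecholamine sulfotransferase, and was the only one of Sult1d1. A peak of 7.35 (4.11 to 12.1) at chr5:87536117-87536317 was centred 5 bp past the inner of its RefSeq start sites, over 1 control tag, a ratio of 12.7 (1.95 to 533). One of 7.84 (4.48 to 12.7) at chr5:87537139-87537339 lay 956 bp past the outer one, over 1 control tag, a ratio of 13.5 (2.10 to 566). Sult1e1, the oestrogen sulfotransferase, had none listed, the closest lying 28.5 kb away.

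The peaks at the Sult1a1 and Sult1b1 starts covered 81 and 95 of the 250 bases before them. The RefSeq promoter sequences, 5′ to 3′ (GRCm38.p6, minus strand, chr7:126676419-126676668 and chr5:87536223-87536472) are given because these are the other member promoters in which a peak reached over 25 bases upstream; capitals mark bases under the peak:
Sult1a1: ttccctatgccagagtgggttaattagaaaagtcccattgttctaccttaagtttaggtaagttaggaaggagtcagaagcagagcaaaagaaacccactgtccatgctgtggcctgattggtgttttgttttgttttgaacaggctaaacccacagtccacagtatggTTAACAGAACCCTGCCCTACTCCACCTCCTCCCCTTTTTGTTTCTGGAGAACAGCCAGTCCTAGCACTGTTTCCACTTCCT
Sult1b1: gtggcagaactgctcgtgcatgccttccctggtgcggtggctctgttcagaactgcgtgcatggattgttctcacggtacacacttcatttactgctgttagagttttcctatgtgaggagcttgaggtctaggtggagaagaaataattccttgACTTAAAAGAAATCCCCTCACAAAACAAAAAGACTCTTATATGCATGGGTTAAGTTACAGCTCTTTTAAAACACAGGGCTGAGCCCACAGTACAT

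Sult1c2 and Sult1c1 lie on chromosome 17. Sult1c2 had 3 peaks, the highest of 26.5 (19.9 to 34.5) at chr17:53848597-53848797, 2739 bp before its start, over 1 control tag, a ratio of 45.5 (7.84 to 1832). A peak of 6.86 (3.75 to 11.5) at chr17:53846327-53846527 lay 469 bp before the start, over 1 control tag, a ratio of 11.8 (1.80 to 499). Sult1c1 had 1 peak, of 13.7, 5938 bp before its start.

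The Sult2a genes, which sulfate bile acids and hydroxysteroids, had a peak in 4 of 8 cases (50.0%), beside 76.5% of all genes; the difference was not tested. They form a cluster of 8 genes over 869.1 kb of chromosome 7, which held 13 peaks between its ends, 1.496 per 100 kb, beside 2.79 over chromosomes 1 to 19. The highest of these, 80.4, lay more than 10 kb from every Sult2a gene. Sult2a5 had 3 peaks, all outside it. Its highest, 39.7 (31.5 to 49.3) at chr7:13675806-13676006, lay 5099 bp from its nearer end, over 4 control tags, a ratio of 17.1 (6.42 to 64.2), and one of 12.7 (8.32 to 18.7) at chr7:13670971-13671171 lay 264 bp from the same end, over 0 control tags, a ratio of 7.31 against the floor (lower bound 5.53). Sult2a1 had one of 34.8 (27.2 to 43.9) at chr7:13794202-13794402, 1944 bp outside, over 5 control tags, a ratio of 11.98 (4.90 to 38.0), and one of 13.7 inside.

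Sult2a3 had 1 peak, 26.0 (19.5 to 34.0) at chr7:14061245-14061445, 6210 bp outside, over 0 control tags, a ratio of 14.9 against the floor (lower bound 11.7). Sult2a4 had 1 of 6.37 inside. Sult2a2, Sult2a6, Sult2a7 and Sult2a8 had none listed, and for Sult2a8, which sulfates bile acids in mouse liver, the closest peak lay 78.7 kb away. Sult2b1, a cholesterol sulfotransferase on another part of chromosome 7, had 3 peaks. Its highest, of 23.5, lay inside the neighbouring gene Fam83e. The Ugt2b and Sult2a genes are families of similar copies, in which read mapping can lose or misplace tags; the part of this in their low counts was not tested.

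Of the 6 remaining SULTs, 5 had a peak, beside 76.5% of all genes. A peak of 50 or more was counted for 2 of the 6, outside the gene in both cases. Of all genes, 17.9% had one inside or within 10 kb. Sult5a1 had 1 peak, 62.7 (52.3 to 74.6) at chr8:123167746-123167946, 8932 bp from its nearer end, over 2 control tags, a ratio of 54.0 (14.6 to 451). No other protein-coding gene lay within 10 kb of it. Sult6b2 had its highest, 59.3 (49.2 to 70.8), at chr6:142809817-142810017, 5451 bp before its start, over 0 control tags, a ratio of 34.0 against the floor (lower bound 27.2). It also had one of 27.4 (20.7 to 35.6) inside and one of 5.88 outside. The heights at Sult5a1, Sult1a1, Sult6b2 and Ugt3a1, from 58.3 to 62.7, had overlapping intervals.

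Sult3a1 had 2 peaks, of 22.5 and 5.39, and Sult3a2 had 1, of 6.37. Sult4a1, a brain-expressed member of the family, counted 5 peaks up to 17.2, of which 4 lay outside it and inside Pnpla5 or Efcab6. Only 1 peak, of 5.39, lay inside Sult4a1. Sult6b1 had none by the 10 kb rule, although a peak of 94.1 stood 32.9 kb away.

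Start sites and gene ends were looked at separately. A peak midpoint within 1 kb of either gene end was found at 8 of 42 members (19.05%), beside 25.4% of all genes. These were Ugt1a1, Ugt1a5, Ugt2a3, Ugt2b35, Ugt2b36, Sult1b1, Sult1c2 and Sult2a5. Promoter windows, from 250 bases before to 50 after a RefSeq start, were matched by symbol for 36 members, as 39 windows. Not matched were Ugt1a6b, Ugt3a2, Sult2a1, Sult2a2, Sult2a7 and Sult4a1. A peak overlapped a window in 6 of these 36 genes (16.7%), beside 13.3% of all genes in the table. The 6 were Ugt1a1, Ugt2a3, Ugt2b35, Ugt2b36, Sult1a1 and Sult1b1, with heights from 7.35 to 26.0.

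The promoter windows were searched on both strands for short patterns of MAF-type elements. TGANTCA was present in 10 of 39 member windows (25.6%), beside 7.06% of all 20085 windows. It is looser than the core shared by AP-1 sites and MAF recognition elements, TGACTCA or TGAGTCA, because it also accepts TGAATCA and TGATTCA. The matches at Ugt1a6a, Ugt2b1, Ugt2b35, Ugt2b38 and Sult2a8 were TGAATCA or TGATTCA. Those at Ugt2a2, Ugt2b37, Sult1b1, Sult1c1 and Sult2b1 were TGACTCA or TGAGTCA. The share of all windows with TGACTCA or TGAGTCA was not counted. TGACNNNGC, the core of the antioxidant response element, was in 0 of 39, beside 13.1%. TGCTGA, a shorter MAF core, was in 12 of 39 (30.8%), beside 17.9%. The windows with TGCTGA included those of Sult2a3, Sult2a4, Sult2a5, Sult2a6 and Sult2a8. Those with TGANTCA included Ugt2b1, Ugt2b35, Ugt2b37 and Ugt2b38. Similar copies like these were each counted, so the member windows are not separate observations. TGANTCA and TGCTGA share TGA and can overlap. Member windows were poor in G and C, with a median content of 39.7% beside 57.0% over all windows. All windows with TGANTCA had a median of 50.0% and all with TGACNNNGC of 59.3%, so base content moves with both shares; its part was not tested.

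Of the 10 member windows with TGANTCA, 2 were overlapped by a peak, as were 6 of all 39 member windows. Over all genes, 144 of the 1417 windows with TGANTCA were overlapped. In the window of the inner Sult1b1 start the match TGAGTCA lay at positions 8 to 14, counted from the start as 0, under the peak. In that of Ugt2b35 the match TGATTCA lay at positions -246 to -240, outside the peak. The windows of Ugt1a1, Ugt2a3, Ugt2b36 and Sult1a1 held none of the 3 patterns. Matches in windows that no listed peak overlapped stood, among others, at Ugt1a6a (TGATTCA, positions -124 to -118), Ugt2b37 (TGACTCA) and Ugt2a2 (TGACTCA). Over all genes, TGACNNNGC was in 18.4% and TGCTGA in 22.3% of the 2359 windows overlapped by a peak, beside 12.3% and 17.4% of the 17726 others, while TGANTCA was in 6.10% and 7.18%. In the 36 windows overlapped by a peak of 50 or more, TGACNNNGC was in 36.1%, TGANTCA in 22.2% and TGCTGA in 55.6%. No member promoter carried a peak of that height, and the sequence under the tall Ugt1a peaks was not analysed here.

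BLRP-MafG tags exceeded control tags at every member peak, as the peak caller required. Over the 60 peaks, 2725 BLRP-MafG tags stood against 69 control tags, a ratio of 33.3 (26.2 to 42.9) after scaling to total tags. Peaks of all genes together gave 41.8 (41.4 to 42.2). UGTs and SULTs gave 33.1 (23.9 to 47.2) and 33.5 (23.6 to 49.2), whose intervals overlap almost fully. The control held 0 tags in 26 of the 60 peaks (43.3%), beside 43.2% of the peaks of all genes, and at most 6. For 9 peaks the lower bound of the ratio was above 10: the 4 tall Ugt1a peaks and the highest peaks of Sult6b2, Sult5a1, Sult1a1, Sult2a3 and Sult3a1. The other peaks cannot be placed above that ratio at this depth.

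**Figure D5:**
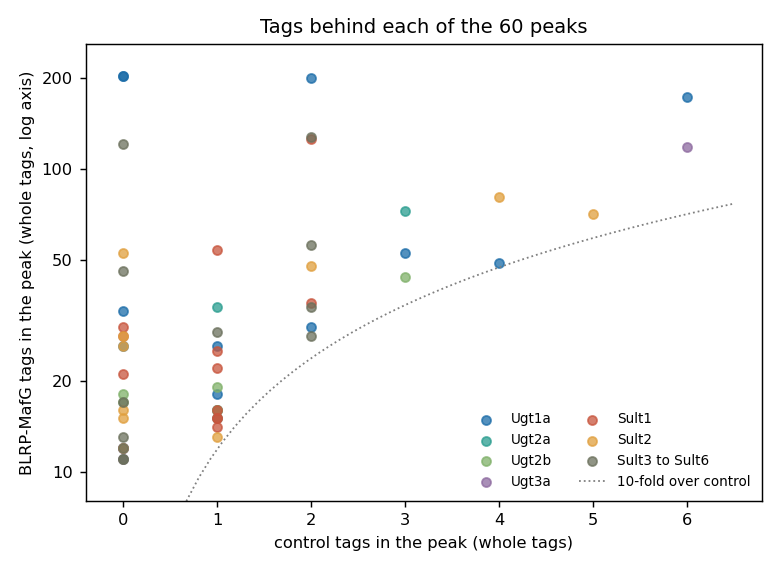
Each of the 60 peaks by its control tags (x axis, whole tags) and its BLRP-MafG tags (y axis, whole tags, log axis), coloured by family; peaks with equal counts overlie each other, and the dotted line is a 10-fold excess after scaling to total tags. The tall Ugt1a peaks hold 174 to 204 BLRP-MafG tags against 0 to 6 control tags, and most other points crowd at 0 to 2 control tags near the lower bound of the peak list.

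Companion genes of conjugation were looked at as well. They cover donor and sulfate supply, removal of sulfate or glucuronate, protein tyrosine sulfation, export and regulators. Of the 27 companion genes analysed, 27 had a peak within the same window, beside 76.5% of all genes. Their median highest peak was 27.4, beside 14.7 over all genes. The list was chosen with earlier results of these data known, and gene length was not matched. For UDP-glucuronic acid supply, Slc35d1, Ugdh and Ugp2 had 21.6, 12.7 and 12.3. For PAPS and sulfate supply, the sulfate carriers Slc26a1 and Slc13a1 had 58.3 (48.3 to 69.8) and 53.4 (43.9 to 64.4), and the PAPS synthases Papss1 and Papss2 had 51.5 (42.1 to 62.3) and 27.4 (20.7 to 35.6). The PAPS transporters Slc35b2 and Slc35b3 and the phosphatases Bpnt1 and Bpnt2 had peaks of 9.80 to 17.2.

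The regulators known to act on UGT and SULT genes included some of the tallest. Ahr, the dioxin receptor, held a peak of 131.8 (117 to 149) at chr12:35533221-35533421, over 0 control tags, a ratio of 75.6 against the floor (lower bound 61.1). Nfe2l2, which encodes NRF2, held one of 90.7 (78.1 to 105) at chr2:75695905-75696105, over 6 control tags, a ratio of 26.01 (11.7 to 71.8). Nr1i2, which encodes the xenobiotic receptor PXR, held 66.6 (55.9 to 78.8) at chr16:38271805-38272005, over 0 control tags, a ratio of 38.2 against the floor (lower bound 30.7). Hnf4a, Nr1i3 and Ppara had 44.1, 31.9 and 16.7. Among the enzymes that remove sulfate or glucuronate, Arsb held 113.2 (99.1 to 129) at chr13:93910998-93911198, over 3 control tags, a ratio of 65.0 (21.9 to 317), while Gusb and Arsa had 10.3 and 9.31. The protein tyrosine sulfotransferase gene Tpst1 held 82.3 (70.3 to 95.8) at chr5:130088756-130088956, over 1 control tag, a ratio of 141.7 (25.1 to 5630). Against the floor used for Ahr and Nr1i2 it is 47.2. Tpst2 had 20.1. The export pump genes Abcc2, Abcc3, Abcg2 and Abcc4 had 49.0, 32.8, 26.5 and 24.0.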

How the data were processed

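ChIP-seq of 2 BLRP-MafG and 2 BLRP control liver libraries was deposited as 1 peak list. The submitters' processing notes name Bowtie2, HOMER and mm10, without versions. HOMER findPeaks required, per the file headers, at least 10 times the control's tags, a Poisson p-value of 1e-06 and 4 times the tags of the surrounding 10 kb. The headers also give a false discovery threshold of 11 tags, but the normalized counts of 468 listed peaks convert to 9 or 10 tags. The headers do not say whether libraries were pooled.

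Signals were used as deposited by the authors: the normalized tag count, and unscaled control tags, listed as 0.5 where there were none and counted here as 0. The authors' deposited fold ratio served for an alternative threshold, and the deposited p-values and scores were not used. Scaled back by the total, every tag count came within 0.102 of a whole tag. Poisson and conditional binomial intervals (95%, scipy 1.17.1) cover counting error only. Ratios against the floor and plain ratios over few control tags are unlike measures. Because weaker sites are unlisted, no peak does not mean no binding.

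Genes came from RefSeq GRCm38.p6, the assembly of mm10. Members and lists were chosen with earlier results of these data known. Every member is named; full values go to the 12 highest members, shared peaks counted once, and to peaks within 1 kb of a member's end. Without values per library no test was run. Gene assignment, intervals and motif search were tested on simulated data. The alternatives were windows of 1, 5 and 50 kb, gene ends only, any overlap, a fold of 20, a tag count of 12, the closest gene only, 0 control tags taken as 0.5, and Ugt1a as 1 locus. The companion gene Sts was not analysed here, and the values of 1 other companion gene are not reported here.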

Additional observations from a re-analysis of the deposited data

How the results depend on the processing

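Of 44 recomputed values over 10 alternative settings, 31 stayed close to the reported one (counts within 1.5 times, the median and the ratio within their counting intervals) and 13 moved. With 34 of 42 members, 19 of 21 UGTs and 15 of 21 SULTs already holding a peak, these counts could not rise 1.5 times. A wider window therefore could not move them, and their share of the 31 says little about stability. With windows of 1, 5 and 50 kb the median highest peak of the members was 7.60, 8.09 and 31.6, beside 8.33, 11.8 and 35.8 for all genes, so of these windows the members' median was above that of all genes at 10 kb only. Distinct peaks numbered 35 within 1 kb and 104 within 50 kb. With a deposited fold over control of at least 20, the median was 10.8, 35 peaks remained and their summed ratio to control was 68.6, which follows from selecting on that ratio. With a tag count of at least 12, 33 peaks remained, at 12 UGTs and 13 SULTs. Given only to the closest gene, peaks left a median of 10.8. With Ugt1a as 1 locus, the median was 11.5 and 11 UGTs had a peak. That count is out of the locus and the 12 UGTs outside it, not out of 21. It was labelled as moved although its total is smaller. Members with a peak ran from 25 to 41 over all settings, out of 42 except with Ugt1a as 1 locus, where the total is smaller. No paired analysis was possible because the list holds no value per library; for the same reason no replicate could be left out. Most peaks hold few tags, so low heights are not ordered by these data.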
